A study of Mus musculus with 8 samples.

Results

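The genes described are 9 genes that mark successive stages of B cell development, from the pro-B cell to the mature B cell: Ebf1, Pax5, Vpreb1, Vpreb3, Igll1, Cd79a, Cd79b, Ms4a1 and Ighm. They were found by gene symbol in a table of 13387 genes, where 8 of the 9 had counts. Ighm was not analysed here. All 8 passed the filter on low counts that left 11722 genes to test. The libraries are 4 of C57BL/6 wild-type bone marrow MKs cultured alone and 4 of the same kind of MKs cocultured with wild-type bone marrow MSCs, each for 18 hours in StemSpan medium with thrombopoietin, the MK growth factor. Both groups used MK-enriched cells, collected from flushed marrow of young adult mice with antibody to CD41 on magnetic beads, and the MSCs had been sorted as CD51+ CD140a+ cells that lacked CD45, Ter119 and CD31. A library pooled several wells, and SMART-Seq HT chemistry for small amounts of RNA was used to prepare it. The labels describe MKs separated from platelets, whereas the paper describes the sequenced cells as platelets. The paper counts the replicates of a group as mice, whereas the labels do not say whether they came from separate animals, and if they did not, p-values measure only the spread between these libraries.

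B cells arise in the bone marrow in steps that each leave a mark in the transcriptome. The transcription factor EBF1 starts the B cell program and PAX5 commits cells to it. Pro-B and pre-B cells then make a surrogate light chain from VPREB1 and the product of Igll1, which pairs with the newly made heavy chain, encoded by Ighm, and tests it on the cell surface. CD79A and CD79B are the subunits that carry the signal of this pre-B cell receptor and of the mature B cell receptor, and MS4A1, known as CD20, appears on the surface as B cells mature. MKs arise from another branch of hematopoiesis and are not known for this program. In bulk RNA, fewer B-lineage cells and less RNA per cell cannot be told apart.

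The libraries held from 4939874 to 12523616 counts. MK and platelet markers were present in both groups, with summed levels of 1911 to 2251 CPM (a count scaled to the library's size, after TMM factors that adjust for differences in composition) in MKs cultured alone and 1761 to 2361 CPM in cocultures, and 0 of 15 were called in either direction with all libraries. Pf4, a platelet chemokine, was the highest of them at 841 ± 209.8 CPM and 1070.4 ± 362 CPM (SD, n = 4 each). Replicate 3 of the cocultures stood apart, with the highest total but counts on 10735 genes against 12406 to 13193 in the others, and 1012 genes at 0 for which none of the other libraries had under 10 counts. The log2 fold changes of the 8 genes and the counts of genes called in each list are therefore also given without it. Of the MK and platelet markers, Gp1ba (-1.16) and Gp6 (-1.20) were called lower and Selp (1.22) higher once it was left out. A count of 3, the floor used here for counting error only, corresponded to between 0.284 and 0.662 CPM.

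The promoters of 6 of the 9 genes, covering 7 start sites, were matched by symbol in the RefSeq annotation of GRCm38.p6. The 250 bases before the start site are printed 5′ to 3′ for 4 of the genes, because 2 of them (Cd79a and Vpreb3) had lower levels in every coculture and the other 2 (Vpreb1 and Igll1) did not. Capitals mark matches on either strand to CCCNNGGG (the core of the EBF1 motif), CAGGTG (an E-box of the kind bound by E2A), TGGGAA (the Ikaros core) and ATGCAAAT (the octamer of OCT factors). The Cd79a window lies at chr7:24897247-24897496 on the plus strand and the Vpreb3 window at chr10:75948050-75948299 on the plus strand. The Vpreb1 window lies at chr16:16869256-16869505 and the Igll1 window at chr16:16863986-16864235, both on the minus strand. These windows end at RefSeq start sites, whereas the gene positions given below are GENCODE spans, which can begin further upstream. By those spans, the Vpreb1 and Vpreb3 windows lie inside the gene and the Cd79a window runs past its start.
Cd79a: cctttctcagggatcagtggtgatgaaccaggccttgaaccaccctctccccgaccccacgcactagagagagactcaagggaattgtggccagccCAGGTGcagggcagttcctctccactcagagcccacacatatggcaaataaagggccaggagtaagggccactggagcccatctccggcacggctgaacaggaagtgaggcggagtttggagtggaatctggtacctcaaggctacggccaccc
Vpreb3: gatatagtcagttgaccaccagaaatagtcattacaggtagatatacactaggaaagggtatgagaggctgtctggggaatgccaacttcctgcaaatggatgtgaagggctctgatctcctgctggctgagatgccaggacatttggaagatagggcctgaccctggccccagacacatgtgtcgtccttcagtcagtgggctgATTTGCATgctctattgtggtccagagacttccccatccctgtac
Vpreb1: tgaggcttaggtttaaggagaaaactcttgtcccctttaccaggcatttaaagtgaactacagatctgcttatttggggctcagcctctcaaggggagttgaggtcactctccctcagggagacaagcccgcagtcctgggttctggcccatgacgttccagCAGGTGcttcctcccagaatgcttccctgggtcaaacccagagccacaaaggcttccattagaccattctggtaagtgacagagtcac
Igll1: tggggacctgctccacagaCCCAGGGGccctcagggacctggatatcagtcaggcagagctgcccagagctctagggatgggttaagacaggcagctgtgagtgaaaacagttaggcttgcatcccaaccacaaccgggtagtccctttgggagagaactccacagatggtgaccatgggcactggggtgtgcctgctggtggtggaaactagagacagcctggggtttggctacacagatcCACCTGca

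The E-box was found in the windows of Cd79a, Vpreb1 and Igll1, and 17.3% of all 32536 promoter windows of this length held it. Only the Igll1 window among these 7 held CCCNNGGG, which 11.9% of all promoters held, and only the Vpreb3 window held the octamer, found in 1.62% of all promoters. The Ikaros core was found at the second start site of Ebf1 and in 21.6% of all promoters. The Pax5 window held none of these motifs. A match is a description of the letters, and no binding was measured.

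Cd79a, Cd79b and Ms4a1 fell in the cocultures, whereas Ebf1, Vpreb1 and Igll1 showed no detectable change and Pax5 and Vpreb3 lay lower in every coculture without passing the test across all genes. By edgeR's quasi-likelihood test, 3 of the 8 genes were called lower and 0 higher (2-fold or more, a Benjamini-Hochberg adjusted p up to 0.05, and 1 CPM or more on average in either group), where 7.31% of all genes tested were called lower and 13.2% higher. At an unadjusted p under 0.05, 5 genes were lower and 0 higher, beside 14.5% and 21.7% of all genes tested. DESeq2 called 5 lower and 0 higher, beside 10.7% and 15.8% of all genes. Without replicate 3 of the cocultures, edgeR called the same 5 genes lower (Cd79a, Cd79b, Ms4a1, Pax5 and Vpreb3) and 0 higher, beside 15.4% and 20.6% of the 12267 genes then tested. The median log2 fold change of the 8 genes was -1.80, against 0.034 for all genes tested. In these 5 genes all 4 cocultures lay below all 4 libraries of MKs cultured alone, as they did in 21.1% of all genes tested.

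**Figure D1:**
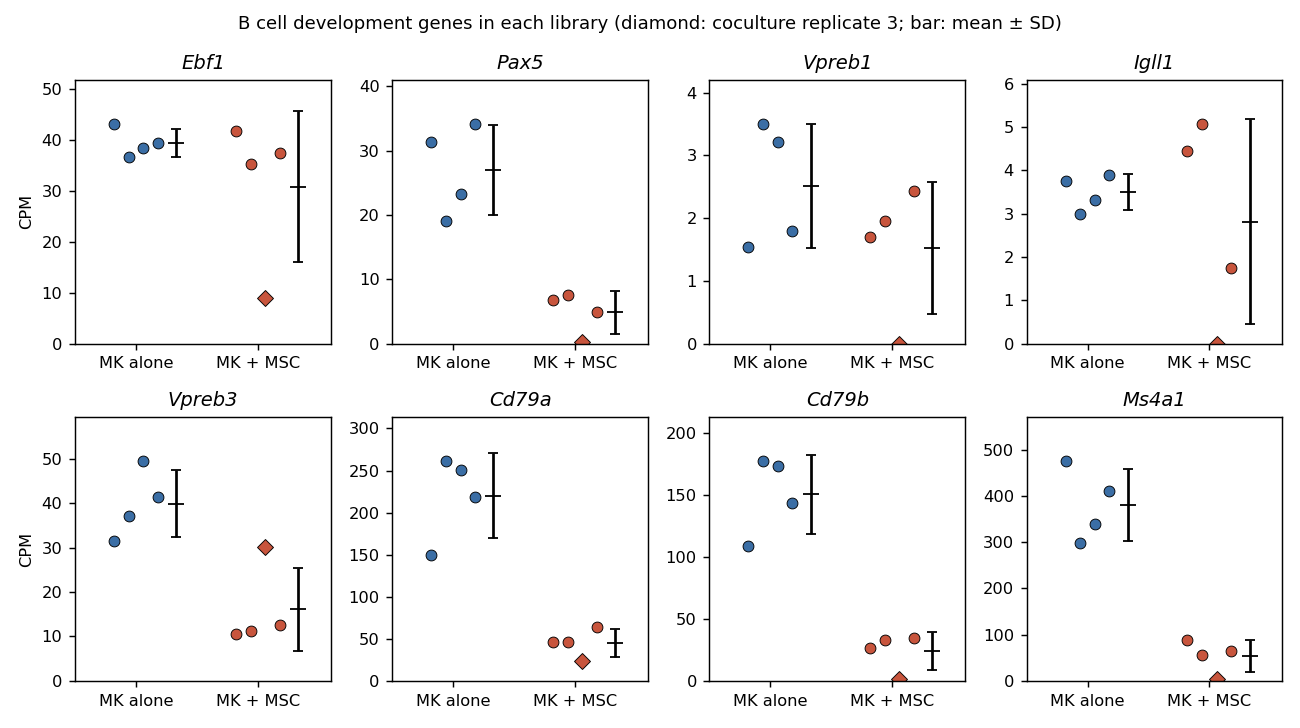
Levels of the 8 B cell development genes in CPM (y axis, linear from 0) in each library of MKs cultured alone (blue) and cocultured with MSCs (red), with the mean and SD of each group beside the points and replicate 3 of the cocultures as a diamond. Pax5, Vpreb3, Cd79a, Cd79b and Ms4a1 do not overlap between the groups, whereas Ebf1 overlaps except in replicate 3 of the cocultures, where it lay at 9.0 CPM.

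Ms4a1 lies on chromosome 19 at 11249675-11266241 on the minus strand (GRCm38) and encodes CD20, a surface protein of B cells past the early stages. It measured 476, 297, 340.3 and 410.3 CPM in replicates 1 to 4 of MKs cultured alone and 88.3, 56.7, 4.6 and 65.7 CPM in replicates 1 to 4 of the cocultures. All cocultures lay far below all libraries of MKs cultured alone. It fell 7.07-fold, with a log2 fold change of -2.82 ± 0.70 (SE, adjusted p = 0.0196), and of -2.46 without replicate 3 of the cocultures. The call was lost without replicate 1 of MKs cultured alone (adjusted p = 0.0547) or replicate 2 of the cocultures (adjusted p = 0.0536).

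Cd79a, on chromosome 7 at 24897381-24902197 on the plus strand, encodes the Ig-alpha signaling subunit. Its levels were 149, 261, 251 and 219 CPM in MKs cultured alone and 46.2, 46.0, 23.3 and 63.8 CPM in cocultures. The highest coculture stayed well below the lowest library of MKs cultured alone, which was replicate 1. Cd79a fell 4.91-fold, a log2 fold change of -2.30 ± 0.33 (SE, adjusted p = 0.00143). Of the 8 genes it was the only one called lower in each of the 8 fits that left out 1 library, with adjusted p between 5.82e-07 and 0.00728 and log2 fold changes between -2.48 and -2.11.

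Its partner Cd79b, on chromosome 11 at 106311341-106314762 on the minus strand, encodes Ig-beta. Cd79b measured 109, 177, 173 and 143 CPM in MKs cultured alone against 26.3, 33, 1.36 and 34.9 CPM in cocultures. The groups did not overlap, and replicate 3 of the cocultures was far below the other cocultures. Cd79b fell 6.32-fold, a log2 fold change of -2.66 ± 0.75 (SE, adjusted p = 0.0333). Leaving out any 1 library other than replicate 3 of the cocultures ended the call, at adjusted p between 0.0614 and 0.0773, and leaving out that replicate gave -2.29 ± 0.21 (adjusted p = 1.40e-07).

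Cd79a and Cd79b, whose products pair in 1 receptor, kept a narrow ratio in 7 of the 8 libraries. Counts of Cd79a to Cd79b stood at 1.37, 1.47, 1.45 and 1.53 in MKs cultured alone and at 1.76, 1.40 and 1.83 in replicates 1, 2 and 4 of the cocultures. Replicate 3 had a ratio of 17.2, from 223 counts of Cd79a and 13 of Cd79b. This ratio does not depend on how libraries are scaled.

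Pax5 lies on chromosome 4 at 44524757-44710487 on the minus strand and encodes the factor that holds cells in the B lineage. Its levels were 31.3, 19.1, 23.3 and 34.2 CPM in MKs cultured alone and 6.82, 7.55, 0.209 and 4.86 CPM in cocultures, where replicate 3 held 2 counts, under the floor. The groups did not overlap. The log2 fold change of -2.47 ± 0.83 (SE) did not pass the test (adjusted p = 0.0612), and without replicate 3 of the cocultures it was -2.07 ± 0.28 and Pax5 was called lower (adjusted p = 1.04e-05). DESeq2 called it lower with all 8 libraries, at -2.51 (adjusted p = 0.00536).

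Ebf1, on chromosome 11 at 44617317-45008091 on the plus strand, acts upstream of Pax5 in B cells and is also known in marrow stromal cells and adipocyte precursors. It measured 43.3, 36.8, 38.5 and 39.4 CPM in MKs cultured alone and 41.8, 35.3, 9.0 and 37.5 CPM in cocultures. Apart from the low value in replicate 3, the groups overlapped almost fully. The log2 fold change was -0.35 ± 0.44 (SE, adjusted p = 0.608), and -0.06 ± 0.18 without replicate 3 of the cocultures (adjusted p = 0.780).

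The 2 transcription factors thus separated. The ratio of Ebf1 to Pax5 counts was 1.38, 1.93, 1.65 and 1.15 in MKs cultured alone and 6.13, 4.67, 43.0 and 7.71 in cocultures, with no overlap. This ratio was chosen after the values were seen, and no test was run on it. The EBF paralogues Ebf2 and Ebf3, which are expressed by mesenchymal cells, were higher on average in the cocultures. Ebf2 held 0, 0, 1 and 0 counts in MKs cultured alone and 160, 64, 0 and 77 in cocultures, and too few libraries held it for the main test, but it was called higher without replicate 3 of the cocultures (adjusted p = 2.25e-08). In the 4 fits that left out a library of MKs cultured alone Ebf2 was tested and not called (adjusted p = 0.0598 to 0.0799). Ebf3 held 0, 0, 1 and 1 counts against 28, 12, 349 and 8, and was called higher (adjusted p = 0.0157), a call that was lost without replicate 1, 2 or 3 of MKs cultured alone and for which DESeq2 gave no adjusted p. The size of these differences cannot be given as a fold, since MKs cultured alone held at most 1 count. Beside Ebf1, the 10 MSC markers with counts summed to 14.9 to 22.9 CPM in MKs cultured alone and 1660 to 4862 CPM in cocultures. Of 8 tested, 7 were called higher, beside 13.2% of all genes tested. Without replicate 3 of the cocultures 9 of 9 were called higher, beside 20.6% of all genes. Among them were Sparc (0.548 and 963 CPM), a matrix protein, and Col1a2 (5.80 and 688 CPM), a collagen chain. Lepr, a defining MSC marker, was at 0 in replicate 3 of the cocultures, and Pdgfra at 0.209 CPM. Among the cocultures the MSC markers summed lowest in that replicate, at 1660 CPM, whereas Ebf3 was at its highest there. The part of MSCs in the levels of Ebf1 and its paralogues was not tested.

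Vpreb1 and Igll1, the genes of the classic surrogate light chain, were low in all libraries. They are neighbours on chromosome 16, where Vpreb1 at 16868403-16870843 and Igll1 at 16860671-16863985, both on the minus strand, are separated by 4417 bases. Vpreb1 measured 1.54, 3.50, 3.22 and 1.79 CPM in MKs cultured alone, from 7 to 34 counts, and 1.71, 1.95, 0 and 2.43 CPM in cocultures, from 0 to 18 counts. Igll1 measured 3.75, 2.99, 3.33 and 3.90 CPM in MKs cultured alone and 4.45, 5.08, 0 and 1.73 CPM in cocultures. Both overlapped between the groups, and both were at 0 in replicate 3 of the cocultures. The log2 fold changes were -0.74 ± 0.97 (SE, adjusted p = 0.624) for Vpreb1 and -0.30 ± 1.03 (SE, adjusted p = 0.864) for Igll1. Without replicate 3 of the cocultures they were -0.38 ± 0.46 and 0.12 ± 0.42, and a change was not detectable in either at this depth. Vpreb2, not analysed here, is a near-identical copy of Vpreb1, with 739 identical bases of 759 aligned between their transcripts (97.4%), so the assignment of reads to Vpreb1 is uncertain.

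Vpreb3, on chromosome 10 at 75943057-75949657 on the plus strand, encodes a related protein that binds heavy chains inside the cell. It measured 31.6, 37.2, 49.5 and 41.3 CPM in MKs cultured alone and 10.6, 11.3, 30.0 and 12.49 CPM in cocultures. The groups did not overlap, but replicate 3 of the cocultures almost reached the lowest library of MKs cultured alone, unlike the other genes, which were low or absent in that library. The log2 fold change of -1.31 ± 0.42 (SE) did not pass the test (adjusted p = 0.0530), whereas DESeq2 called Vpreb3 lower (-1.31, adjusted p = 0.0116), as did edgeR without replicate 3 of the cocultures (-1.82 ± 0.22, adjusted p = 3.52e-06).

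**Figure D2:**
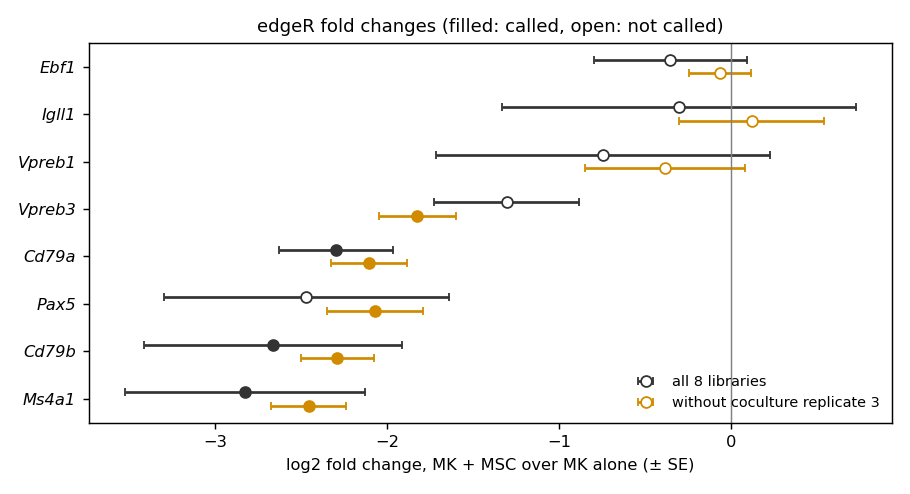
Log2 fold change of each gene in cocultures over MKs cultured alone from edgeR (x axis, with SE bars), with all 8 libraries (dark) and without replicate 3 of the cocultures (orange), where filled points were called. Ebf1, Igll1 and Vpreb1 lie within about 1 SE of 0 in both fits, and Cd79a, Cd79b and Ms4a1 are filled in both.

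By stage, the counts of Vpreb1, Vpreb3 and Igll1 together, divided by those of Ms4a1, gave 0.0775, 0.147, 0.165 and 0.115 in MKs cultured alone and 0.190, 0.324, 6.52 and 0.253 in cocultures. Every coculture lay above every library of MKs cultured alone. The sum is mostly Vpreb3, which alone made up the ratio in replicate 3, and the ratio of Vpreb3 alone to Ms4a1 overlapped, at 0.0664, 0.125, 0.145 and 0.101 in MKs cultured alone and 0.120, 0.200, 6.52 and 0.190 in cocultures. The mean log2 ratio differed by 2.22 with all libraries and by 1.05 without replicate 3 of the cocultures. As a score over genes chosen with results known, it was not tested.

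**Figure D3:**
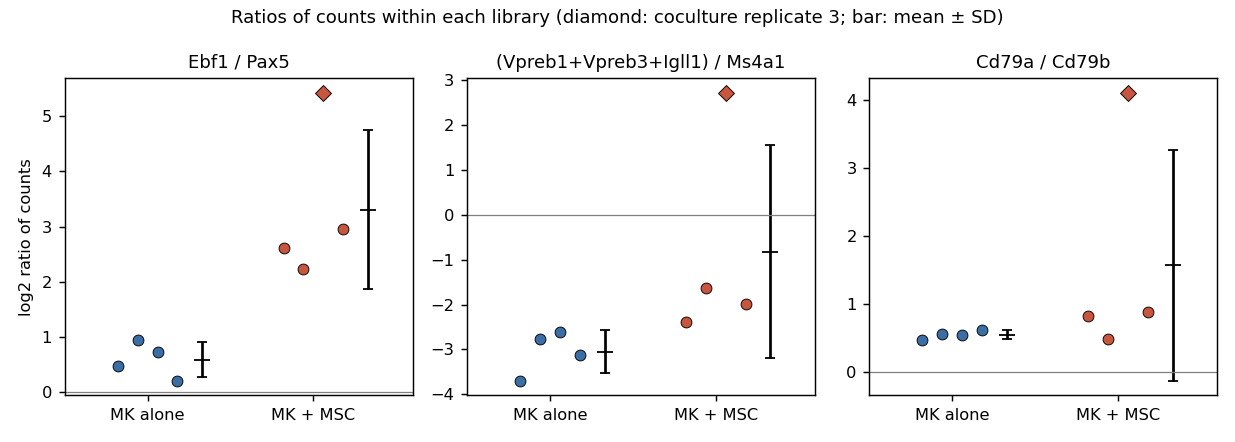
Log2 ratios of counts (y axis) within each library of MKs cultured alone (blue) and cocultures (red), with the mean and SD of each group and replicate 3 of the cocultures as a diamond. The ratio of Ebf1 to Pax5 and that of the surrogate light chain genes to Ms4a1 do not overlap between the groups, whereas Cd79a to Cd79b overlaps and stands far above the rest in replicate 3 of the cocultures.

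Per kilobase of exon, Cd79a was the most abundant of the 8 genes in MKs cultured alone, at 151 ± 34.7 CPM per kilobase (SD, n = 4). Cd79b followed at 105 ± 22.2, Ms4a1 at 61.6 ± 12.7 and Vpreb3 at 46.4 ± 8.77 CPM per kilobase. Among these, the ranges of neighbours in the order overlapped for Cd79a and Cd79b, for Cd79b and Ms4a1, and for Ms4a1 and Vpreb3. Ebf1 (4.05 ± 0.28), Pax5 (3.05 ± 0.79), Vpreb1 (2.10 ± 0.83) and Igll1 (1.61 ± 0.19 CPM per kilobase) formed a lower class, whose ranges lay below that of Vpreb3 and overlapped between neighbours in the order. In cocultures the highest mean was that of Cd79a, at 30.8 ± 11.4 CPM per kilobase, and the lowest that of Pax5, at 0.549 ± 0.373, but neighbours overlapped there too. In replicate 3 Vpreb3, at 35.0 CPM per kilobase, lay above Cd79a, at 16.0. There Vpreb1 and Igll1 held 0 counts and Pax5 held 2, under the floor of 3 counts, so these genes cannot be ordered.

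Libraries of MKs cultured alone also differed among themselves in these genes. In replicate 1, Ms4a1, Pax5 and Ebf1 lay 0.46, 0.33 and 0.18 above the mean of the other 3 replicates in log2(CPM + 1), while Cd79a, Cd79b, Vpreb1 and Vpreb3 differed from it by -0.70, -0.59, -0.56 and -0.41, and Igll1 by 0.11. The first 3 have exon lengths of 6187 to 9756 bases and the other 4 of 859 to 1457 bases. Across all genes with a length, the same difference had a median of 0.17 in the longest of 3 equal classes, which holds Ebf1, Pax5 and Ms4a1, and of -0.19 in the shortest, which holds the other 5. The log2 fold change of cocultures over MKs cultured alone had a median of -0.20 in the longest class and 0.31 in the shortest. Replicate 3 of the cocultures differed from the other cocultures by a median of -0.84 in the longest class, -0.48 in the middle class and 0.17 in the shortest. In that library Ebf1, Pax5 and Ms4a1 differed from the other cocultures by -1.97, -2.60 and -3.64, Vpreb3 by 1.32, and the other 4 genes, also short, by -3.77 to -1.11. The part of gene length in the values above was not tested.

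For each gene, the genes with the most similar profile were found from the root mean square difference of log2(CPM + 1), centered on the mean of each gene over the libraries. Over the 7 libraries without replicate 3 of the cocultures, Cd79b ranked 9 of 11721 genes by likeness to Cd79a and Cd79a ranked 13 by likeness to Cd79b, at a difference of 0.14. This was the closest pair. For the rest of the 8, the nearest fellow gene ranked from 202 (for Ms4a1) to 3671 (for Ebf1). In the same libraries the nearest gene to Cd79a outside the 8 was H2-Ab1 (0.074), an MHC class II chain, and the nearest to Cd79b was Arhgap4 (0.053). Over all 8 libraries, the nearest fellow gene to Cd79a was Pax5, at rank 798, and to Cd79b it was Ms4a1, at rank 110. The closest pair was then Ebf1 and Igll1 (0.33). The nearest genes outside the 8 were then Lsp1 to Cd79a (0.19), Nfe2 to Cd79b (0.096), Lyst to Ms4a1 (0.20) and Ikzf2 to Pax5 (0.17). For the others they were Nifk to Ebf1 (0.064), Anxa11 to Vpreb3 (0.15), Slc16a13 to Vpreb1 (0.14) and Tipin to Igll1 (0.22). The values of the genes compared share the depth of each library, and replicate 3 of the cocultures weighs heavily in the profiles over 8 libraries.

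Other genes of the B cell program were counted from lists written by hand, which leave out the 8 genes. Over all genes tested, 7.31% were called lower and 13.2% higher with all libraries. Without replicate 3 of the cocultures these shares were 15.4% and 20.6%, as calls lower rose over all genes from 857 to 1890. Of 16 B lineage transcription factors tested, 8 were called lower and 0 higher, with a median log2 fold change of -1.56. Ikzf1, which encodes Ikaros, fell from 297 ± 29.6 to 42.5 ± 11.7 CPM (SD, n = 4 each; log2 fold change -2.80, adjusted p = 9.70e-05), and Myb, a factor of progenitors in several lineages, fell from 170.1 ± 14.4 to 15.7 ± 9.44 CPM (-3.43, adjusted p = 0.00456). Irf8 (-1.42) and Foxo1 (-1.69) were also called lower. Spi1, shared with myeloid cells, was the highest not called, at 227 ± 52.5 and 137 ± 112 CPM. With 1 library left out the count called lower ran from 4 to 12, with 12 reached without replicate 3 of the cocultures. Several of these factors, among them Ikzf1, Myb, Runx1 and Spi1, are used by other blood lineages too.

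The pro-B and pre-B genes other than the surrogate light chain had 3 of 11 tested called lower and 0 higher (7.31% and 13.2% over all genes). Their median log2 fold change was -2.05. Cd24a (-2.80), Cd93 (-1.14) and Flt3 (-3.45) were called lower, of which Cd24a is abundant in neutrophils too. Rag1, which encodes an enzyme that cuts immunoglobulin genes, measured 12.8, 13.2, 17.3 and 15.0 CPM in MKs cultured alone and 3.79, 3.26, 0 and 2.08 CPM in cocultures. Dntt, the polymerase that adds bases at the joints, measured 8.17, 11.1, 8.21 and 10.6 CPM against 4.17, 6.51, 0 and 3.30 CPM. Neither passed the test with all libraries (adjusted p = 0.0874 and 0.349), although the groups did not overlap in either, and both were called lower without replicate 3 of the cocultures (adjusted p = 1.30e-05 and 0.0123). Rag1 and Dntt were chosen after their values were seen. Akap12, a scaffold protein also found outside the lineage, was the highest not called, at 29.7 ± 5.87 and 82.7 ± 54.9 CPM. With 1 library left out the count called lower ran from 2 to 8. The 8 came without replicate 3 of the cocultures, where 2 were called higher (15.4% and 20.6% over all genes).

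Genes of B cell receptor signaling had 10 of 19 tested called lower and 1 higher (7.31% and 13.2% over all genes), with a median of -1.36. Lyn (-1.34), Ptpn6 (-1.36) and Syk (-1.20), which are kinases and a phosphatase of many blood cells, were called lower. Cd81, a tetraspanin found on B cells and on most other cells, rose from 82.2 ± 6.18 to 386 ± 68.5 CPM (2.23, adjusted p = 8.96e-05). Pik3ap1, an adaptor of this signaling, was the highest not called, at 183 ± 49.1 and 97.8 ± 11.5 CPM (adjusted p = 0.0183, under 2-fold). With 1 library left out, from 4 to 16 were called lower, with 16 reached without replicate 3 of the cocultures (15.4% over all genes).

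Mature B cell genes had 5 of 13 tested called lower and 0 higher (7.31% and 13.2% over all genes), with a median of -1.99. Ly6d (-2.02), Tnfrsf13b (-2.91), a receptor for BAFF and APRIL, Fcrla (-3.44) and H2-Ob (-3.54), an MHC class II accessory chain of B cells, were the highest of them. Ralgps2 was the highest not called, at 59.2 ± 9.04 and 36.9 ± 35.3 CPM. Without replicate 3 of the cocultures 11 were called lower (15.4% over all genes), and without another library 3 or 4. Of the immunoglobulin genes 2 had counts and neither passed the test. Iglc2, a lambda light chain constant region, measured 55.4, 77.1, 75.3 and 61.3 CPM in MKs cultured alone and 17.3, 22.3, 0.105 and 23.6 CPM in cocultures (-2.09, adjusted p = 0.151), and was called lower without replicate 3 of the cocultures (-1.70, adjusted p = 2.94e-06). Jchain, the joining chain of secreted antibody, measured 39.7, 30.6, 21.1 and 23.1 CPM against 52.4, 64.0, 0.314 and 30.4 CPM (0.36, adjusted p = 0.83). Among plasma cell genes 0 of 4 tested were called lower and 1 higher, with a median log2 fold change of -0.46. The 1 called lower without replicate 3 of the cocultures was Mzb1, a chaperone of antibody-secreting cells, which held 36.0 CPM in that replicate and 2.47 to 4.51 CPM in the other cocultures. The plasma cell gene called higher was Sdc1, which encodes the syndecan of plasma cells and of many adherent cells, at 10.2 ± 0.801 and 154 ± 64.1 CPM (3.90). Xbp1, a factor of secretory cells, was the highest not called, at 392 ± 33.5 and 227 ± 34.8 CPM.

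**Figure D4:**
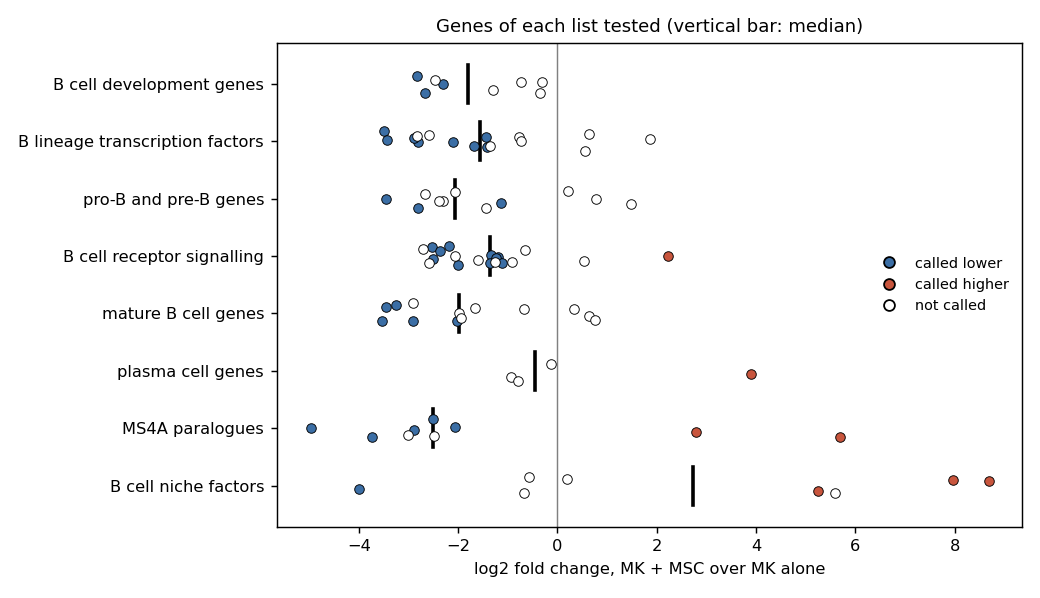
Log2 fold change of each tested gene in cocultures over MKs cultured alone (x axis) for the B cell development genes and 7 further lists (y axis), with genes called lower in blue, called higher in red and not called in white, and the median of each list as a bar. The medians of the B cell development genes, transcription factors, pro-B and pre-B genes, receptor signaling genes and mature B cell genes lie between -2.05 and -1.36.

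Of genes listed as factors by which marrow stroma feeds B cell precursors, 3 of 8 tested were called higher in the cocultures and 1 lower. Over all genes the shares were 13.2% and 7.31%. Cxcl12, the chemokine that holds precursors in the niche, measured 0, 0.206, 0.222 and 0 CPM in MKs cultured alone and 82.5, 85.6, 5.86 and 63.5 CPM in cocultures (adjusted p = 0.000775). Igf1 and Lgals1, which encodes a lectin that binds the pre-B cell receptor, were also called higher, Lgals1 from 43.8 ± 9.58 to 1660 ± 1239 CPM. Across cocultures they did not follow Cxcl12, which also counts among the MSC markers. In replicate 3 of the cocultures Igf1 (313 CPM) and Lgals1 (3501 CPM) were at their highest. There the MSC markers summed lowest, at 1660 CPM, and the macrophage markers highest, at 2042 CPM. Of the macrophage markers, Cd14, Cd68, C1qb, C1qc and Mrc1 were at their highest among the cocultures in that replicate. Adgre1, Csf1r, C1qa, Fcgr1 and Mertk were at their lowest there. Which cells held the RNA of Igf1 and Lgals1 was not tested. Il7, the cytokine that pro-B cells need in the mouse, measured 0.441, 0.824, 0 and 0.163 CPM in MKs cultured alone, at most 8 counts, and 11.9, 10.03, 0 and 9.37 CPM in cocultures, and was called higher without replicate 3 of the cocultures (adjusted p = 2.34e-06). Its receptor Il7r measured 37.8 ± 12.0 and 65.0 ± 19.1 CPM and was not called (adjusted p = 0.128). Il7 and Il7r were chosen after their values were seen. Tnfsf13b, which encodes the B cell survival factor BAFF, fell from 15.8 ± 2.08 to 0.993 ± 0.743 CPM (adjusted p = 0.0166). Vcam1, an adhesion molecule, was the highest not called, at 93.4 ± 8.50 and 107 ± 75.6 CPM. Without replicate 3 of the cocultures 6 were called higher and 2 lower (20.6% and 15.4% over all genes). Without another library 3 were called higher and at most 1 lower.

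Markers of other cells did not all move in the direction of these genes. Over all genes, 7.31% were called lower and 13.2% higher, and 15.4% and 20.6% without replicate 3 of the cocultures. Neutrophil markers summed to 79698.5 to 82799 CPM in MKs cultured alone and 4467 to 9786 CPM in cocultures, with 11 of 11 called lower, also without replicate 3 of the cocultures. Macrophage markers summed to 157 to 235 CPM and 1035 to 2042 CPM, with 8 of 9 called higher (10 of 10 without that replicate) and C1qa, C1qb and C1qc below 1 CPM on average in MKs cultured alone. Erythroid markers summed to 29.8 to 47.7 CPM and 14.2 to 93.7 CPM, with 0 of 3 tested called, and 3 of 4 called lower without that replicate. The summed level of the 8 B cell development genes was 836 to 893 CPM in MKs cultured alone, 197 to 226 CPM in replicates 1, 2 and 4 of the cocultures and 68.5 CPM in replicate 3. The part of these shifts in the levels of the B cell development genes was not tested.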

How the data were processed

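The authors deposited raw counts per gene, whole numbers without normalization, made, by their account, with kallisto on an mm10 transcriptome index after fastp had removed poor paired-end reads. Versions, the summing over transcripts and the use of strand are not given in the sources used here. Groups and replicate numbers came from the labels. The test was the quasi-likelihood F test of edgeR 4.0.16 (R 4.3.3), robust, after filterByExpr and with TMM scaling, on all 8 libraries without covariate, and p-values were adjusted over all 11722 genes. The SE given with an edgeR log2 fold change was calculated back from this test, as the absolute log2 fold change divided by the square root of F. The batches of the authors' DESeq2 design are not named, so no batch was fitted. DESeq2 1.42.0 was an alternative, with other scalings, filters and thresholds, the replicate number as a block, and each library left out in turn. On simulated counts with 200 genes changed 8-fold among 11128, edgeR recovered 200 and called 2 others. The simulation gave all libraries the same spread, changed no gene of low count and held no library that stood apart. It therefore checks the code and does not measure the power of the test in these data. Exon lengths and positions came from GENCODE vM21 (GRCm38), promoters from RefSeq. Members and lists were chosen with earlier results of these data known. From each B lineage, MS4A, niche and lymphoid list, called genes were named, up to the 4 most abundant, with the most abundant not called. Others were picked with their values in view. Of the most similar genes, the nearest was named. A result on 1 gene of receptor signaling is not reported here.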

Additional observations from a re-analysis of the deposited data

Results flagged for a closer look

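Of 32 groups of 4 libraries examined over single genes, ratios and summed lists, 7 held a library far from the other 3. Replicate 3 of the cocultures was behind 6 of them. For independent groups chance gives about 1 in 20. These groups are not independent, since they share libraries and the ratios reuse values of the single genes, so the 1 in 20 is only a rough guide. In log2(CPM + 1), that replicate stood at 3.32 for Ebf1 against 5.18 to 5.42 in the other cocultures, at 1.24 for Cd79b against 4.77 to 5.16, and at 2.49 for Ms4a1 against 5.85 to 6.48. It stood above the others for Vpreb3, at 4.96 against 3.54 to 3.75. The log2 ratio of the surrogate light chain genes to Ms4a1 was 2.71 there against -2.40 to -1.63, and that of Cd79a to Cd79b was 4.10 against 0.48 to 0.87. In MKs cultured alone, the summed level of B lineage transcription factors stood apart in replicate 2, at a log2 CPM of 10.3 (10.27) against 10.40 to 10.42. The cause of these values was not tested.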

How the results depend on the processing

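The number of B cell development genes called lower, 3, was 5 with DESeq2, 5 with DESeq2 and replicate block, and 1 with glmTreat, with a range of 1 to 5 over the fits that left out 1 library, where the other alternatives gave 2 to 4 (2 with the replicate block in edgeR). By edgeR and DESeq2, 0 were called higher under any alternative run. Among all genes, those called lower (857) numbered 303 with glmTreat and 1392 with DESeq2 and replicate block, and between 539 and 1890 over the same fits, and those called higher (1544) numbered 818 with glmTreat and between 1071 and 2530. The highest values came without replicate 3 of the cocultures. Igll1 turned from -0.30 to 0.12 without that replicate (from -0.71 to 0.12 over these fits), and the other 7 genes kept a negative log2 fold change wherever they were tested. A minimum of 10 counts per library left out Pax5, Vpreb1 and Igll1. Over all genes the log2 fold change had a median of 0.034, which lay from -0.17 to 0.13 over the alternatives. In the block, Cd79b (-3.02, adjusted p = 0.101) and Ms4a1 (-3.23, adjusted p = 0.0513) were not called and Vpreb3 (-1.43, adjusted p = 0.0469) was. Same-numbered libraries deviated together with correlations from 0.020 to 0.37 across genes, and 2 of 4 libraries in each group matched best with their own number, so the numbers were not taken to pair the samples. Depth limits Vpreb1 and Igll1, with at most 47 counts in a library. The cause of these changes was not tested.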

Other observations

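The MS4A family, to which Ms4a1 belongs, had members that moved either way. Of 9 paralogues tested, 5 were called lower and 2 higher, beside 7.31% and 13.2% of all genes tested. Ms4a3, known in neutrophil and monocyte precursors, measured 240.3, 283, 286 and 215 CPM in MKs cultured alone and 29.4, 31.8, 0.628 and 15.4 CPM in cocultures (log2 fold change -3.73 by edgeR's quasi-likelihood test, adjusted p = 0.0143), and Ms4a6c also fell (-2.51). Ms4a7, known in macrophages, measured 1.54, 2.58, 1.77 and 2.60 CPM in MKs cultured alone and 109, 104, 146 and 88.3 CPM in cocultures (5.70, adjusted p = 1.51e-05), and Ms4a6d also rose (2.79). Ms4a6b was the highest not called, at 74.8 ± 18.2 and 13.3 ± 11.4 CPM. Without replicate 3 of the cocultures 7 were called lower and 2 higher (15.4% and 20.6% over all genes). Without another library 3 or 4 were lower and 2 higher.

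Few markers of other lymphoid cells could be tested. Over all genes tested, 7.31% were called lower, and 15.4% without replicate 3 of the cocultures. Among T cell markers 1 of 5 tested was called lower, Cd3d, at 4.93 ± 2.03 and 1.05 ± 0.505 CPM (SD, n = 4 each), and Lck, which some B lineage cells also express, was the highest not called. Among NK cell markers 2 of 3 tested were called lower, Klrb1c (-4.42) and Nkg7 (-3.20), and Klrd1 was the highest not called. Among plasmacytoid dendritic cell markers 1 of 4 tested was called lower, Siglech, at 46.3 ± 11.8 and 8.23 ± 5.39 CPM, and Tcf4 was the highest not called. Without replicate 3 of the cocultures these counts were 5, 3 and 2, and without another library 0 or 1 for T cell markers, 1 or 2 for NK cell markers and 0 for plasmacytoid dendritic cell markers.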
